A study of Mus musculus and Rattus norvegicus with 51 samples.

Results

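The comparison described here sets 3 whole-liver libraries of mice given CCl4 with [O] HMGB1 against 3 of mice given CCl4 with BSA, 6 of the 51 libraries of the series. They were chosen by their titles (liver fibrosis with [O] HMGB1, replicates 1 to 3, and liver fibrosis with BSA, replicates 1 to 3), and no measured value entered the choice. All 6 livers were labelled wild-type and male. All of them had received CCl4 for 4 weeks, a solvent that kills hepatocytes and leads to scarring when given again and again, the BSA controls included, so every difference below stands on top of an established injury. BSA is bovine serum albumin, the carrier protein control. The sources used here give neither dose and route of the proteins nor strain and age of the mice, and the labels do not spell out [O] or [H]. Further groups set beside these were 3 CCl4 livers with [H] HMGB1, the HSC-T6 rat stellate cell line with [O] HMGB1 or BSA for 6 h (3 libraries each), and wild-type livers labelled MO (3) or CCl4 (4) for 4 weeks.

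HMGB1 is a nuclear protein that bends DNA. Stressed and dying cells release it, and outside the cell it acts as an alarm signal on receptors such as RAGE and TLR4, with activities that depend on the oxidation of its cysteines. In injured liver, hepatic stellate cells turn into contractile, collagen-producing myofibroblasts, Kupffer cells and recruited myeloid cells release cytokines, and hepatocytes answer with acute phase proteins while their metabolic genes can fall back. The title of the series asks about HMGB1 forms in advancing and resolving fibrosis, and this comparison addresses the [O] form during injury.

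The sequencing libraries differed in ways their labels do not give, and this bears on every value below. Although all 6 were labelled male, Xist, the RNA that coats the inactive X chromosome of female cells, was counted 76, 7158 and 11799 times in BSA libraries 1, 2 and 3 and 22, 6692 and 14595 times in [O] libraries 1, 2 and 3. The summed counts of the Y-linked genes Ddx3y, Eif2s3y, Kdm5d and Uty were 2406, 8 and 3 with BSA and 2248, 121 and 8 with [O]. Replicate 1 of both groups thus had the counts of male tissue, replicate 3 of both groups went against its label, BSA 2 did as well, and [O] 2 held many Xist counts together with some Y-linked ones. Within these 2 groups the replicate number therefore coincides with Xist level, and both groups hold 1 low and 2 high libraries. For [H] the number does not match in this way, since its replicate 3 had 1037 Xist and 2897 Y-linked counts. The labels do not say what the number stands for. Nor do they say whether the samples are separate animals, and if they are not, p-values reflect sample-to-sample spread that may be technical.

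**Figure D1:**
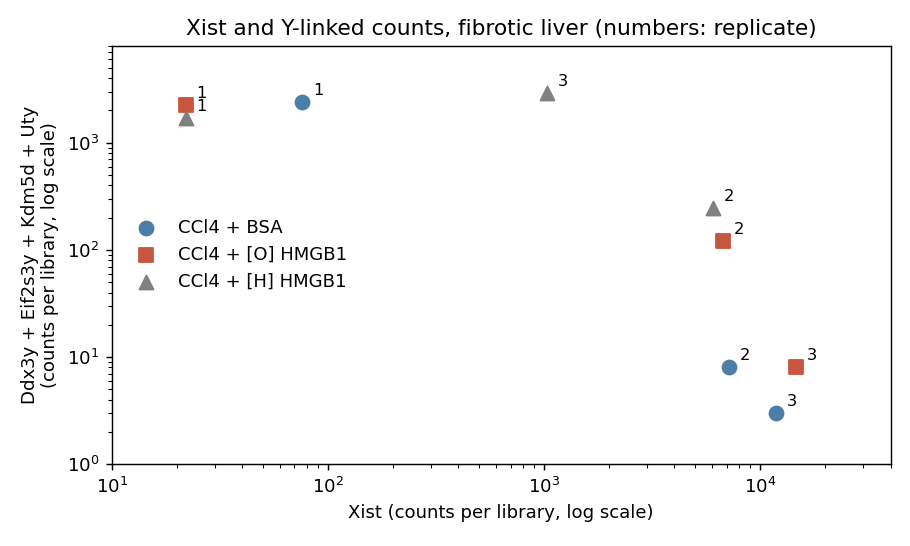
Xist counts (x axis) against the summed counts of 4 Y-linked genes (y axis) in each library of the CCl4 livers, both log scales; colour and shape give the group and the number beside each point is the replicate. Replicate 1 of each group sits at low Xist (22 to 76) and high Y-linked counts, while BSA 2, BSA 3 and [O] 3 sit at 3 to 8 Y-linked counts.

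Same-numbered libraries also deviated together over all genes, with correlations of 0.475, 0.593 and 0.507 between the BSA and [O] deviations from their group means. For libraries of different number these were -0.48 to 0.14. Deviations cancel out within a group, so high values for one kind of pair go in part with low values for the other. Without centring, each library correlated best with its same-numbered one except [O] 2, whose closest library was [O] 3 (0.956). BSA 2 stood apart from the rest on the first principal component of the 9 CCl4 libraries (109.1, the others -42.41 to 36.16). It was also the shallowest of the 6, with 10989755 gene counts against 12330888 to 14552489.

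With the replicate number as a block, no gene passed the test between [O] HMGB1 and BSA. edgeR's quasi-likelihood test with Benjamini-Hochberg adjustment called 0 of 13255 genes (0%) at an adjusted p under 0.05, and the smallest adjusted p was 0.896. At an unadjusted p under 0.05 there were 439 genes (3.31%), 242 higher (1.83%) and 197 lower (1.49%). Without the block edgeR also called 0 genes, with 184 (1.39%) at an unadjusted p under 0.05. DESeq2 with the same block called 37 genes (0.279%), 13 higher (0.0981%) and 24 lower (0.181%), each of which had the same sign in all 3 numbered pairs, but DESeq2 without the block called 1 (0.00754%), the malic enzyme gene Me1. With 3 pairs an exact sign-flip test cannot go below p = 0.25, and with 3 against 3 an exact permutation test cannot go below 0.1. Of all genes tested, 15.4% were higher and 11% lower with [O] HMGB1 in each of the 3 pairs. These are the background shares beside which the gene groups below are given. The gene lists were chosen with earlier results of these data known, so a share above the background is a description only. The groups did not overlap for 3.41% of genes with [O] higher and for 2.32% with [O] lower.

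Levels below are CPM (each gene's counts relative to the library total, with TMM scaling) for replicates 1, 2 and 3 in that order, and where 2 sets of levels are joined by "against" the BSA libraries come first. Log2 differences are [O] minus BSA from the edgeR fit with the block, with their standard error (SE). Since no gene passed that test, directions are given as values. Whole liver was sequenced, so fewer cells of a type and less RNA per cell cannot be told apart. The genes named first are those with the smallest p among genes of the same sign in all pairs and a mean of at least 1 CPM, 12 higher and 12 lower. DESeq2 with the block called 9 of the 12 higher genes (not Scara5, Col6a5 and Bcl6) and 10 of the 12 lower ones (not Areg and Fabp2). Having been picked for their p and for agreement between pairs, these genes lend no support by that agreement.

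**Figure D2:**
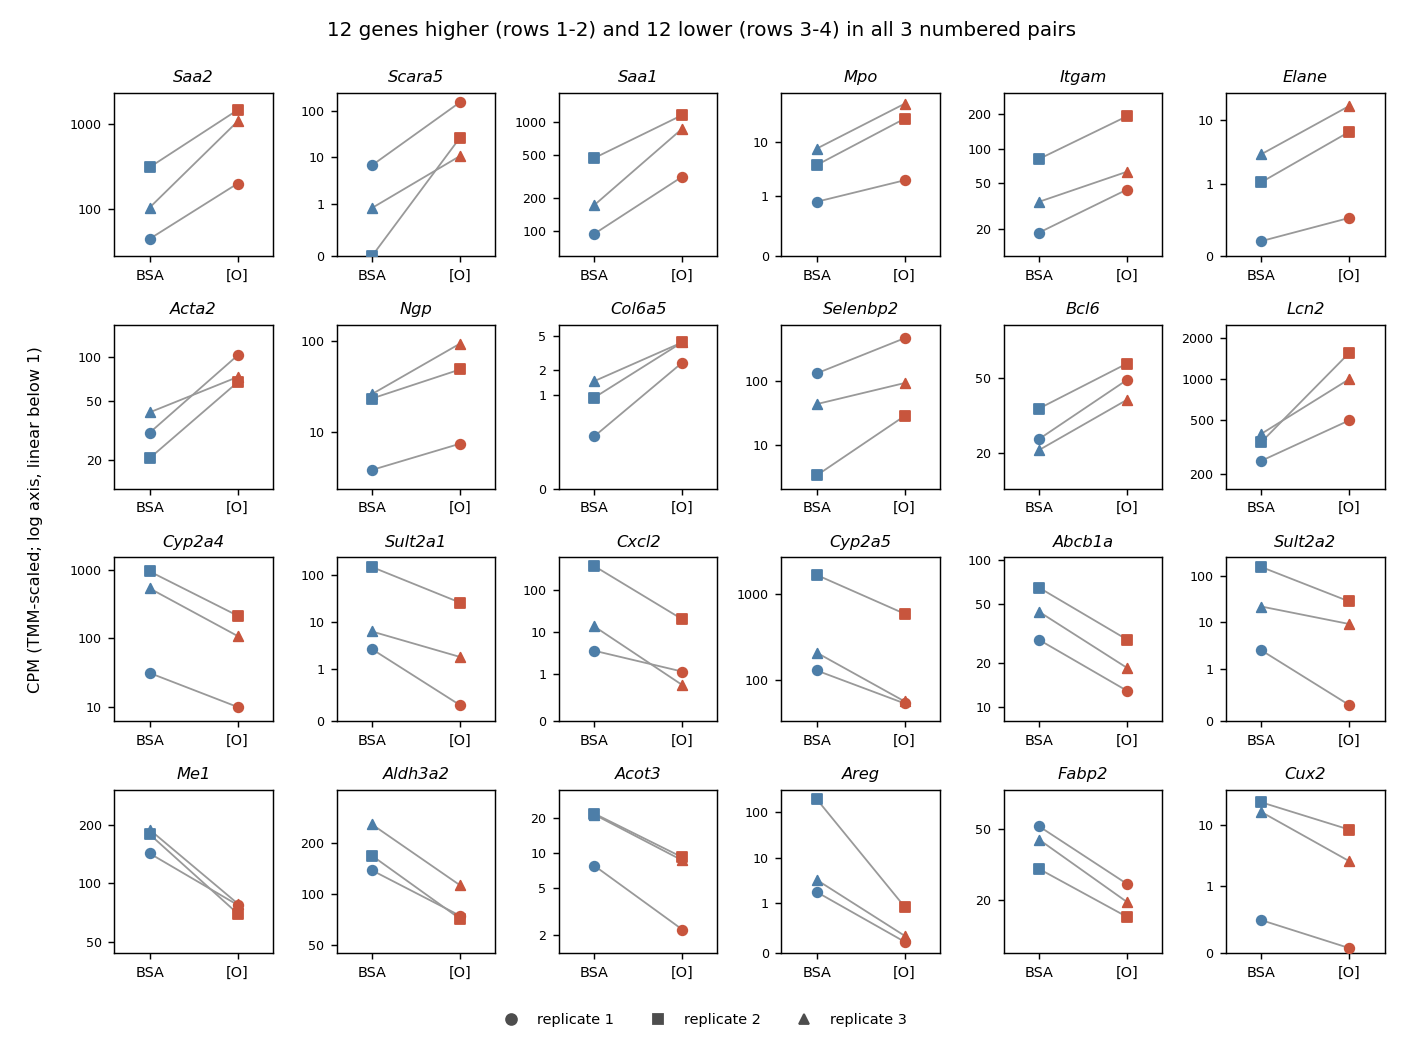
CPM (y axis, log scale, linear below 1) of the 12 leading genes that were higher and the 12 that were lower with [O] HMGB1, with BSA libraries in blue and [O] libraries in red; lines join libraries of the same replicate number, shown by the marker shape. All lines slope one way by the choice of the genes, and the groups did not overlap for 5 of the 12 higher genes and 4 of the 12 lower ones.

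Acute phase genes, which hepatocytes switch on in response to interleukins 1 and 6, led the higher genes. Saa2, which encodes a serum amyloid A protein that rides on high-density lipoprotein during inflammation, stood at 44.3, 311 and 104 CPM with BSA and 199.6, 1478 and 1084 CPM with [O] HMGB1 (log2 2.60, SE 0.34). Its neighbour Saa1, also a serum amyloid A gene, stood at 94.2, 465 and 173 CPM against 314, 1150.3 and 864 CPM (log2 1.79, SE 0.29). Each [O] library exceeded its same-numbered BSA library in both genes, although [O] 1 lay below BSA 2, so the groups overlapped. Lcn2, which encodes the iron-siderophore binding protein lipocalin-2, stood at 249.7, 343 and 395 CPM with BSA and 496, 1559 and 999 CPM with [O] HMGB1 (log2 1.502, SE 0.32). Here all 3 [O] libraries lay above all 3 BSA libraries. These 3 genes were called by DESeq2 with the block (adjusted p = 2.02e-11, 7.9e-06 and 0.00164 for Saa2, Saa1 and Lcn2, higher in 3 of 3 pairs each) and by no other setting that was run.

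Saa1 and Saa2 lie beside each other on mouse chromosome 7, and their upstream regions are shown because both genes were among the leading ones. The 250 bases before their starts were identical at 238 aligned positions (94.8%). Their transcripts were not compared, so whether reads of one were counted for the other was not tested. In 30 bases from these regions and from Lcn2 (RefSeq sequences, build GRCm38.p6, 5′ to 3′ on the gene's strand), capitals mark the match to the C/EBP core TTGCNNAA. C/EBP factors are regulators of acute phase genes. The Saa1 stretch lies inside the annotated gene (46740497 to 46743181), since the promoter table takes a start within it.
Saa1, chr7:46743144-46743173, minus strand: ctgtgctcccaTTGCACAAtgagggagaat
Saa2, chr7:46751639-46751668, plus strand: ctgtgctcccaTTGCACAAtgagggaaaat
Lcn2, chr2:32387937-32387966, minus strand: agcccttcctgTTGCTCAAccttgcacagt

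This core, searched on both strands, was in the 250 bases before the start of 9.56% of all 32851 promoters of the table. Of the 24 leading genes 21 had a promoter there, and 4 of the higher (Saa2, Saa1, Ngp, Lcn2) and 3 of the lower genes (Cyp2a4, Cyp2a5, Fabp2) held it. In all, 8 motif forms were searched in these genes, after their values were known. A looser form of the core (TTNNGNAA) was in 36.8% of all promoters and in 7 of the higher and 7 of the lower genes. The STAT core TTCNNNGAA (7.02% of all) was in Col6a5 and Bcl6, TATAAA (12.4%) in Selenbp2, Cyp2a4, Cyp2a5, Areg and Cux2, and a looser NF-kB core (GGG and TTCC with 3 bases between, 4.65%) in Bcl6 and Cxcl2. The CArG box (1.47%) and a direct repeat of AGGTCA with 1 base between (0.0335%) were in none. A match of letters is a description of the sequence and shows no binding.

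Of the 20 acute phase genes tested, 10 were higher in all 3 pairs and 0 lower in all 3 (50% and 0%, against 15.4% and 11% of all genes). At an unadjusted p under 0.05, 6 were higher (1.83% of all genes were). Their median log2 difference was 0.37, against 0.02 over all genes, with pair medians of 0.59, 0.14 and 0.50. Apcs, which encodes serum amyloid P, the major acute phase pentraxin of mice, stood at 107, 206 and 138 CPM with BSA and 171, 422 and 316 CPM with [O] HMGB1 (log2 0.96, SE 0.22). The plasma carrier gene Orm2 stood at 94.6, 158 and 322 CPM against 166, 589 and 492 CPM (log2 1.10, SE 0.32). Its relative Orm1 was less variable, at 759, 727 and 838 CPM against 1191, 1233 and 1132 CPM, and its groups did not overlap (log2 0.62, SE 0.25). Hp, which encodes the hemoglobin scavenger haptoglobin, and the protease inhibitor gene Serpina3n were also higher in each pair (log2 0.45 and 0.57). Socs3, which is induced by the same interleukin signal and restrains it, was not, at 13.5, 89.3 and 19.4 CPM against 10.8, 50.3 and 25.1 CPM. The list's summed level was 21368, 35713 and 22932 CPM with BSA and 31001, 40554 and 35169.5 CPM with [O] HMGB1. [H] HMGB1 livers had Saa2 at 998, 679 and 189 and Lcn2 at 952, 647 and 232 CPM, which overlaps the [O] livers.

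Of the 12 neutrophil genes tested, 6 were higher in all pairs (50%) and 0 lower. The median log2 difference was 0.77, with pair medians of 0.30, 0.56 and 1.26. The members described here include ones chosen after their values were seen, and no difference between kinds of neutrophil gene was tested. Mpo, the myeloperoxidase gene of primary granules, stood at 0.908, 3.79 and 7.64 CPM with BSA and 1.98, 27.5 and 52.1 CPM with [O] HMGB1 (log2 2.40, SE 0.40). Elane, which encodes neutrophil elastase of the same granules, stood at 0.209, 1.08 and 2.93 CPM against 0.533, 6.53 and 16.4 CPM (log2 2.32, SE 0.41). Both genes are made mainly at the promyelocyte stage of granulocyte development. In both, [O] 2 and [O] 3 carried the high values and the replicate 1 pair was the lowest, so the groups overlapped. The secondary granule genes Ngp (3.84, 23.5 and 26.2 CPM against 7.46, 48.9 and 94.2 CPM, log2 1.30, SE 0.25) and Ltf, the lactoferrin gene (2.44, 10.5 and 13.4 CPM against 3.12, 26 and 47.4 CPM, log2 1.22, SE 0.34), had the same order of libraries. Camp, the cathelicidin gene, was also higher in each pair (log2 1.10). The calprotectin gene S100a8, abundant in mature neutrophils, stood at 13.1, 34.8 and 18.3 CPM against 7.77, 42.1 and 39.6 CPM (log2 0.23, SE 0.37). S100a9, its partner, was like it lower in [O] 1 than in BSA 1 (26.5, 74.1 and 33.8 CPM against 11.6, 89 and 80.4 CPM, log2 0.14, SE 0.45). The receptor genes Csf3r and Cxcr2 had log2 differences of 0.01 and 0.04.

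Lcn2, which stressed hepatocytes also make, made up most of the list's sum. Without it the remaining 11 neutrophil genes summed to 67.9, 268 and 143 CPM with BSA and 53.1, 332 and 397 CPM with [O] HMGB1, so the replicate 1 pair was lower with [O] and the others higher. DESeq2 with the block called 4 of the 12 (Mpo, Elane, Ngp and Lcn2), all of them higher. Of all genes it called 0.0981% higher. Lcn2 was also described with the acute phase genes above.

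Among genes of monocytes and macrophages, Itgam, which encodes the CD11b chain of a leukocyte integrin, stood at 18.7, 81.5 and 34.6 CPM with BSA and 44.2, 192 and 63.2 CPM with [O] HMGB1 (log2 1.11, SE 0.19). BSA 2 exceeded [O] 1 and [O] 3, so this difference was within pairs only. The fractalkine receptor gene Cx3cr1 had groups that did not overlap (7.19, 8.65 and 12.6 CPM against 15.2, 28.5 and 15.4 CPM, log2 1.03, SE 0.33). Of 18 genes of infiltrating and scar-associated macrophages 4 were higher in all pairs (22.2%) and 2 lower (11.1%), with a median of 0.30. The Kupffer cell genes were split. Adgre1, which encodes the F4/80 antigen, stood at 44.9, 58.6 and 75.2 CPM against 61.5, 117 and 116 CPM (log2 0.69, SE 0.20). Marco, a scavenger receptor gene, stood at 422, 567 and 282 CPM against 582, 866 and 579 CPM (log2 0.70, SE 0.25), without overlap. Clec4f, a lectin that defines resident Kupffer cells, stood at 95.3, 147 and 163 CPM against 135, 26.2 and 103 CPM and was lowest in [O] 2 (log2 -0.86, SE 0.56). The Kupffer list of 14 genes had a median of -0.21.

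Of the 19 genes tested of activated stellate cells and myofibroblasts, 10 were higher with [O] HMGB1 in all pairs (52.6%) and 0 lower, and DESeq2 with the block called 1, Acta2. At an unadjusted p under 0.05 there were 7 higher (1.83% of all genes were), and the median was 0.54. Acta2, which encodes smooth muscle alpha-actin, the standard mark of the myofibroblast, stood at 30.7, 20.7 and 42.1 CPM with BSA and 102, 67.1 and 72.8 CPM with [O] HMGB1 (31.1 ± 10.7 against 80.6 ± 18.6 CPM, SD, n = 3 each; log2 1.41, SE 0.25). The lowest [O] library exceeded the highest BSA library (DESeq2 with the block, adjusted p = 0.00813). Tagln, the gene of the actin-binding protein transgelin, stood at 42.7, 40.8 and 42.5 CPM against 94.8, 82.5 and 55.6 CPM (log2 0.85, SE 0.22). The BSA libraries of Tagln were nearly level, and all [O] libraries lay above them. Tpm2, a tropomyosin gene, and Myl9, a myosin light chain gene, were also apart (log2 0.76 and 1.05). Pdgfrb, the receptor through which PDGF drives stellate cells to divide, stood at 27.7, 68.4 and 42.8 CPM against 59.8, 98.6 and 65.2 CPM (log2 0.75, SE 0.21). It was higher within each pair but its groups overlapped. The list's median was 0.51 without the replicate 1 pair, 0.30 without the replicate 2 pair and 0.82 without the replicate 3 pair. Without the block and without [O] 2 it was 0.21.

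**Figure D3:**
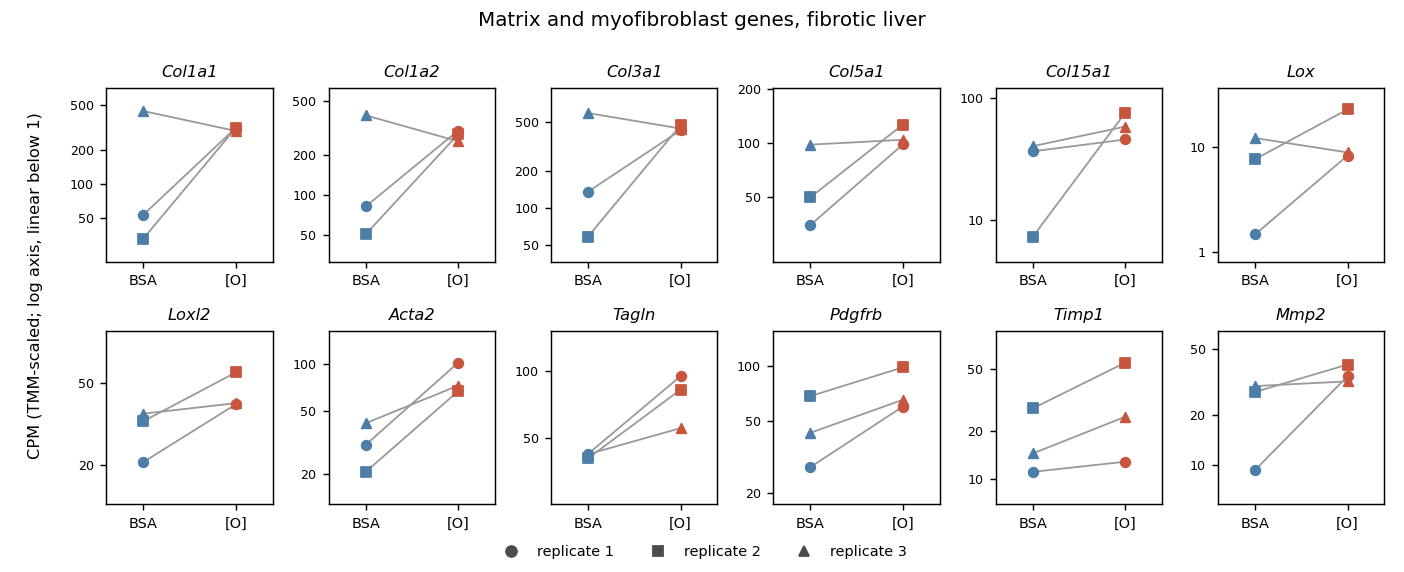
CPM (y axis, log scale) of 12 matrix and myofibroblast genes in the BSA (blue) and [O] HMGB1 (red) libraries, joined by replicate number. The contractile genes Acta2 and Tagln have groups apart, whereas Col1a1, Col1a2 and Col3a1 are highest in BSA 3.

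For the fibrillar collagens the 3 BSA livers were far apart and the 3 [O] livers nearly level. Col1a1, the main chain of scar collagen, stood at 52.9, 32.6 and 440.01 CPM with BSA and 313, 312 and 293 CPM with [O] HMGB1 (log2 1.85, SE 0.80). Col3a1 stood at 135, 58.2 and 593 CPM against 429, 472 and 443 CPM (log2 1.44, SE 0.67), and Col1a2 at 82.1, 50.8 and 394 CPM against 303, 285 and 252 CPM (log2 1.30, SE 0.64). In each of these, BSA 3 exceeded every [O] library and BSA 1 and BSA 2 were below all of them. The cell cycle genes were also highest in BSA 3 (Mki67, a mark of dividing cells, 24.5, 4 and 262 CPM with BSA and 28.2, 13.5 and 55.4 CPM with [O]). Whether the state of this liver bears on the collagen values was not tested. Of the 27 genes of the collagen and fibrosis matrix list, 7 were higher in all pairs (25.9%) and 0 lower. At an unadjusted p under 0.05, 5 were higher (1.83% of all genes were). The median was 0.65, with pair medians of 0.79, 1.001 and -0.0029. Leaving out the pairs of replicate 1, 2 and 3 in turn gave 0.51, 0.48 and 0.95, and without the block and without BSA 2 it was 0.32. Fn1, which hepatocytes make in bulk, dominates the sum of this list. Without Fn1 the sum was 1645, 2528 and 3812 CPM with BSA and 3312, 4193 and 3411 CPM with [O] HMGB1.

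Further collagen genes are given by their values and were in part chosen after these were seen. Col5a1, which starts the assembly of collagen I fibrils, stood at 34.9, 49.9 and 98.1 CPM against 98.3, 127 and 104 CPM, without overlap (log2 0.98, SE 0.32). Col15a1, a basement membrane collagen, was apart as well (36.7, 7.25 and 40.4 CPM against 45.9, 76.2 and 58.6 CPM, log2 1.31, SE 0.62), mainly through BSA 2. Col6a5, a collagen VI chain, stood at 0.559, 0.973 and 1.47 CPM against 2.44, 4.25 and 4.24 CPM (log2 1.89, SE 0.38). Among the genes that crosslink and process collagen, Loxl2 (20.7, 32.8 and 35.7 CPM against 39.6, 56.6 and 40.1 CPM, log2 0.63, SE 0.23), Loxl1 and Loxl3 had groups apart. These encode lysyl oxidases, which join collagen fibres. Lox, the first member of that family, did not, at 1.47, 7.68 and 12.2 CPM against 8.3, 22.9 and 8.9 CPM (log2 1.16, SE 0.59). Of 14 genes on this list 5 were higher in all pairs (35.7%) and 1 lower, and the median was 0.48. Timp1, an inhibitor of matrix proteases, stood at 11, 27.9 and 14.4 CPM against 12.8, 54.5 and 24.7 CPM (log2 0.66, SE 0.24), and the gelatinase gene Mmp2 at 9.36, 27.5 and 29.8 CPM against 34.1, 40.1 and 31.8 CPM (log2 0.82, SE 0.37). Of the 17 genes of proteases and inhibitors 4 were higher in all pairs (23.5%) and 1 lower. Tgfb1, the cytokine that drives collagen synthesis, stood at 31.2, 80.9 and 57.9 CPM against 36.5, 76.8 and 49.5 CPM and did not differ beyond its spread (log2 -0.03, SE 0.19). Of 17 TGF-beta genes 0 had an unadjusted p under 0.05, while 5 were higher (29.4%) and 1 lower (5.88%) in all pairs. Their median was -0.02. The stellate cell retinoid gene Lrat stood at 42.4, 100.3 and 40.4 CPM against 31.1, 56.3 and 61.9 CPM (log2 -0.23, SE 0.31).

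Scara5, which encodes a ferritin receptor expressed by fibroblasts and other stromal cells, had the widest fold among the higher genes. It stood at 6.77, 0 and 0.926 CPM with BSA and 151, 26.4 and 10.7 CPM with [O] HMGB1 (log2 4.73, SE 0.69). All [O] libraries exceeded all BSA libraries, but [O] 1 alone held most of the counts. It was the 1 gene that edgeR called once the replicate 2 pair was left out (adjusted p = 0.0454, higher in 2 of 2 pairs). The [H] HMGB1 livers had Scara5 at 100, 14.4 and 17.1 CPM, which overlaps the [O] livers.

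Chemokine genes went in different directions. Cxcl2, a neutrophil attractant, stood at 3.56, 362 and 13.4 CPM with BSA and 1.14, 19.8 and 0.765 CPM with [O] HMGB1 (log2 -3.51, SE 0.53). The high value of BSA 2 sets the BSA mean, although each pair had the same order. Its 2 NF-kB cores (GGG and TTTCC with 2 bases between) are shown in capitals because, of the 21 leading genes with a promoter, Cxcl2 alone held this form (1.41% of all promoters did). They begin 97 and 78 bases before its start.
Cxcl2, chr5:90903802-90903831, plus strand: GGGAATTTCCctggtccccGGGCTTTTCCa

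Cxcl10, an interferon-induced T cell attractant, was also lower in each pair (8.24, 125 and 7.72 CPM against 3.73, 11.7 and 5.7 CPM, log2 -1.69, SE 0.60), as was the eotaxin gene Ccl24 (5.17, 32.7 and 9.88 CPM against 3.96, 2.03 and 1.88 CPM, log2 -2.27, SE 0.72). Cxcl13, a B cell attractant, stood at 9.78, 33.3 and 4.17 CPM against 24.6, 58.5 and 24.8 CPM (log2 1.54, SE 0.37). DESeq2 with the block called Cxcl2 and Ccl24 lower and Cxcl13 higher. Spp1, the gene of osteopontin, a matrix protein and cytokine of injured liver, had groups apart (119, 120.2 and 192 CPM against 218, 346 and 246 CPM, log2 0.92, SE 0.28). The monocyte attractant Ccl2 stood at 6.21, 43.3 and 6.64 CPM against 6.02, 24.9 and 7.23 CPM (log2 -0.26, SE 0.28), and Cxcl1 at 18.1, 152 and 24.9 CPM against 13.1, 57.3 and 28 CPM (log2 -0.57, SE 0.32). In both, BSA 2 and [O] 2 were the highest libraries of their group. Tnf and Il1b, the classic macrophage cytokines, did not differ beyond their spread (log2 -0.09 and 0.16). Of 25 cytokine and chemokine genes 3 were higher and 4 lower in all pairs (12% and 16%), and the median was 0.02.

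Hmgb1 itself stood at 161, 154 and 166 CPM with BSA and 162, 137 and 157 CPM with [O] HMGB1 (log2 -0.08, SE 0.19), so the RNA of the gene was level between the groups within its spread. The [O] protein was given from outside and leaves no count. Of its receptors, Tlr4 stood at 3.28, 7.03 and 6.79 CPM against 3.2, 6.96 and 5.42 CPM (log2 -0.13, SE 0.30), and Ager, the gene of RAGE, did not pass the filter on low counts. The TLR4 co-receptor gene Cd14 was lower in each pair (35.5, 414 and 31.1 CPM against 25.7, 182 and 28.2 CPM, log2 -0.60, SE 0.26). Of the 15 genes of HMGB1, its relatives and its receptors 0 had an unadjusted p under 0.05. In all pairs 1 was higher (6.67%) and 3 were lower (20%).

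Of 21 immediate early genes, which growth and stress signals switch on within minutes, 8 were lower with [O] HMGB1 in all pairs (38.1%) and 0 higher. Fos, a subunit of AP-1, stood at 6.28, 151 and 7.95 CPM with BSA and 4.72, 21.4 and 3.41 CPM with [O] HMGB1 (log2 -1.54, SE 0.48). Egr1, a zinc finger factor, stood at 103, 959.6 and 73.3 CPM against 52.7, 343 and 61.4 CPM (log2 -0.91, SE 0.29). Both were far higher in BSA 2 than in any other library, and [O] 2 came next. The epidermal growth factor receptor ligand gene Areg had the largest fitted difference of the leading genes, at 1.75, 197 and 3.24 CPM against 0.228, 0.924 and 0.348 CPM (log2 -5.93, SE 1.10), and BSA 2 held most of its BSA counts. The immediate early list had a median of -0.66 and pair medians of -0.35, -1.52 and -0.07. The list summed to 1022, 5950.4 and 803 CPM with BSA and 868, 1884 and 781 CPM with [O], and without the replicate 2 pair the median was -0.22. Without the block and without BSA 2 the sign turned, with a median of 0.48. The depth and scaling factor of BSA 2 (10989755 counts, TMM factor 0.8413) were the lowest of the 6, and their part in these values was not tested. Of the 17 NF-kB target genes 1 was higher and 2 lower in all pairs, with a median of -0.30 that likewise turned to 0.29 without the block and BSA 2.

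The lower genes were led by hepatocyte enzymes that female mouse livers are known to make in larger amounts. Cyp2a4, a steroid hydroxylase gene, stood at 31.2, 964 and 543 CPM with BSA and 9.9, 216 and 109 CPM with [O] HMGB1 (log2 -2.05, SE 0.25). The sulfotransferase genes Sult2a1 (2.65, 151 and 6.33 CPM against 0.305, 26.3 and 1.81 CPM, log2 -2.37, SE 0.29) and Sult2a2 (2.51, 153 and 21.8 CPM against 0.305, 27.9 and 9.18 CPM, log2 -2.05, SE 0.35) act on bile acids and steroids. Cux2, a repressor that marks the female liver, stood at 0.489, 23.1 and 16.1 CPM against 0.0761, 8.25 and 2.5 CPM (log2 -2.10, SE 0.40). In each of these genes the libraries of replicate 1, which had male-type Xist and Y-linked counts, were the lowest of their group, and each [O] library lay below its same-numbered BSA library. Cyp2a4 is a near copy of Cyp2a5, and Sult2a1 of Sult2a2, so their reads may be shared. Without the block and without BSA 2, the fitted differences of Sult2a1, Sult2a2 and Cyp2a5 had the opposite sign (log2 1.09, 0.05 and 0.48).

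A list of 27 genes known to be higher in female mouse liver was drawn up after these values were seen and is a description only. Of the 23 tested, 14 were lower in all pairs (60.9%, against 11% of all genes) and 0 higher, with a median of -1.44. DESeq2 with the block called 9 of them lower, and 0.181% of all genes. All 27 genes of the list, the untested ones included, summed to 519.5, 3069 and 1911 CPM with BSA and 342, 954 and 1109 CPM with [O] HMGB1. Of 22 genes known to be higher in male liver, likewise listed afterwards, 11 were higher in all pairs (50%) and 0 lower, with a median of 0.73. Without the block and without [O] 1 the median of the male list was -0.82. Selenbp2, a selenium-binding protein gene of this kind, stood at 131, 3.35 and 43.5 CPM against 465, 28.4 and 92.8 CPM (log2 1.93, SE 0.39). Its log2 difference was 0.02 without the block and without [O] 1, the library with its highest value. The alpha-1-antitrypsin gene Serpina1e stood at 2197, 227 and 481 CPM against 4244, 821 and 1279 CPM (log2 1.41, SE 0.30). Bcl6, a repressor of female-type genes in male liver, had groups apart at 23.7, 34.5 and 20.8 CPM against 49, 59.8 and 38.4 CPM (log2 0.91, SE 0.19).

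Pair medians were -0.49, -1.38 and -0.89 for the female list and 0.45, 0.94 and 0.24 for the male list, whose members were chosen with these values known, as were those of the female list. In the replicate 2 pair the Y-linked counts also differed (8 in BSA 2, 121 in [O] 2). In the replicate 3 pair they were 3 and 8. The part of these counts in the sex-biased genes was not tested. With Xist level in place of the replicate number as the block, a setting chosen after the counts were seen, edgeR called 0 genes, with 193 at an unadjusted p under 0.05. Of 15 genes of the growth hormone axis, whose secretion pattern sets this sex bias through STAT5, 5 were higher (33.3%) and 3 lower (20%) in all pairs, with a median of -0.11 (0.21 without the replicate 2 pair). Hsd3b5, a steroid dehydrogenase gene of male liver, stood at 1.33, 0.108 and 0.154 CPM against 10.5, 0.739 and 0.278 CPM (log2 2.53, SE 0.58), and Cyp2d9, a male-type P450 gene, at 771, 34.3 and 95.9 CPM against 1022, 169.6 and 166 CPM (log2 1.15, SE 0.41). Both were higher in each pair, and both had their highest value in [O] 1. Cish, an inhibitor induced by STAT5, stood at 13.3, 63.9 and 26.5 CPM against 4.26, 8.74 and 14 CPM (log2 -1.81, SE 0.41), and the IGF-binding protein gene Igfbp1 at 476, 2888 and 165 CPM against 314, 706 and 62.3 CPM (log2 -1.35, SE 0.34). Igf1, Ghr and Socs2 were neither higher nor lower in all pairs.

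Among fatty acid oxidation genes driven by PPAR-alpha, the fasting receptor of hepatocytes, the fatty acid omega-hydroxylase genes Cyp4a14 and Cyp4a10 had the lowest fitted differences. Cyp4a14 stood at 477, 3074 and 492 CPM with BSA and 146, 33.6 and 191 CPM with [O] HMGB1 (log2 -2.86, SE 1.10). Cyp4a10 stood at 625, 1611 and 299 CPM against 275, 54.8 and 83.7 CPM (log2 -2.53, SE 0.76). In both the groups did not overlap and BSA 2 was the highest library. Cyp4a12a, a male-type member of the same family that is on the growth hormone and male lists, was higher in each pair instead (84.3, 0.865 and 0.0772 CPM against 127, 6.53 and 2.57 CPM, log2 1.91, SE 0.63), and DESeq2 with the block called it higher (adjusted p = 0.0315). Cyp4a members are close relatives, and whether their reads were shared was not tested. Vnn1, a pantetheinase gene, was apart at 17.7, 39.4 and 39.8 CPM against 15.8, 13 and 17.3 CPM (log2 -0.997, SE 0.32), and the peroxisomal thioesterase gene Acot3 was lower in each pair (7.82, 22 and 21.5 CPM against 2.21, 9.24 and 8.69 CPM, log2 -1.44, SE 0.27). Of 24 genes 8 were lower in all pairs (33.3%) and 0 higher, and 5 were lower at an unadjusted p under 0.05 (1.49% of all genes were). The list's median was -0.32. Without the replicate 2 pair it was -0.04.

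Me1, the cytosolic malic enzyme, which makes NADPH for lipid synthesis, had libraries close together within each group. It stood at 143, 179 and 189 CPM with BSA and 77.6, 70.1 and 78.9 CPM with [O] HMGB1 (170.2 ± 24.3 against 75.5 ± 4.74 CPM, SD, n = 3 each; log2 -1.16, SE 0.21). DESeq2 called it with the block (adjusted p = 0.00934) and without it (adjusted p = 0.00199, lower in 3 of 3 pairs). Aldh3a2, the fatty aldehyde dehydrogenase gene, stood at 138, 168 and 258 CPM against 74.4, 71.4 and 113 CPM (log2 -1.11, SE 0.20), and Fabp2, a fatty acid-binding protein gene, at 51.7, 29.9 and 43.6 CPM against 24.6, 16.1 and 19.5 CPM (log2 -1.04, SE 0.20). All 3 had groups apart. Abcb1a, a drug efflux pump gene, was lower in each pair with overlapping groups (28.6, 64.6 and 44.4 CPM against 12.9, 28.8 and 18.5 CPM, log2 -1.19, SE 0.19).

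Drug and bile acid genes of hepatocytes had more members lower than higher in all pairs. Of 18 xenobiotic receptor targets 7 were lower in all pairs (38.9%) and 1 higher, with a median of -0.37. Cyp3a11, the main drug-metabolising enzyme under the receptor PXR, had groups apart at 3069, 3359 and 2602 CPM against 2142, 1197 and 2172 CPM (log2 -0.75, SE 0.34). Of 19 bile acid genes 7 were lower (36.8%) and 2 higher in all pairs (median -0.36). Cyp7a1, the rate-limiting enzyme of bile acid synthesis, stood at 33.5, 6.06 and 238 CPM against 16.5, 4.06 and 191 CPM (log2 -0.63, SE 0.22), and Nr0b2, the receptor that represses it, at 32.3, 1.95 and 16.1 CPM against 43.6, 47.8 and 24.8 CPM (log2 1.59, SE 0.82). The order within each pair was the same, but replicate 3 of both groups was many times above the others for Cyp7a1. The pericentral enzyme gene Cyp2e1, which activates CCl4, stood at 388, 1362 and 936 CPM against 547, 304 and 579 CPM (log2 -0.78, SE 0.52) and was higher in [O] 1 than in BSA 1. Hepatocyte identity genes had a median of -0.12, with Alb at 16446, 19388 and 15356 CPM against 18678, 10838 and 15552 CPM.

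Cholesterol synthesis genes had a median of 0.71, but its pair medians of -0.24, 1.61 and 0.48 differ in sign. The list summed to 7422, 2024 and 6781 CPM with BSA and 6345, 4557 and 8209 CPM with [O], and BSA 2 was the lowest library. Of 23 genes 5 were higher in all pairs (21.7%) and 1 lower. Fdps, the farnesyl pyrophosphate synthase gene, was among the former (402, 51.6 and 254 CPM against 523, 169.9 and 384 CPM, log2 0.89, SE 0.32). Without the replicate 2 pair the list's median was 0.18.

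Stress response genes had lower values with [O] HMGB1 in the chaperone and antioxidant lists. Of 13 heat shock chaperone genes 6 were lower in all pairs (46.2%) and 0 higher, with a median of -0.53 and similar pair medians of -0.54, -0.32 and -0.33. Bag3, a co-chaperone gene, had groups apart at 152, 218 and 143 CPM against 61.2, 133 and 113 CPM (log2 -0.79, SE 0.25). Of 15 antioxidant genes under NRF2, 7 were lower in all pairs (46.7%) and 0 higher (median -0.48). Gclm, a subunit of the enzyme that limits glutathione synthesis, was apart at 177, 219 and 194 CPM against 139, 126 and 158 CPM (log2 -0.48, SE 0.21), and so was the thioredoxin reductase gene Txnrd1 (226, 399 and 239 CPM against 181, 209.96 and 179.9 CPM, log2 -0.55, SE 0.23). Nqo1 and Hmox1, standard targets of NRF2, were not. Cell cycle genes disagreed between pairs, with medians of 0.09, 0.99 and -1.89, and their sum was 1332, 253 and 2149.8 CPM with BSA and 1145, 508 and 1108 CPM with [O] HMGB1.

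**Figure D4:**
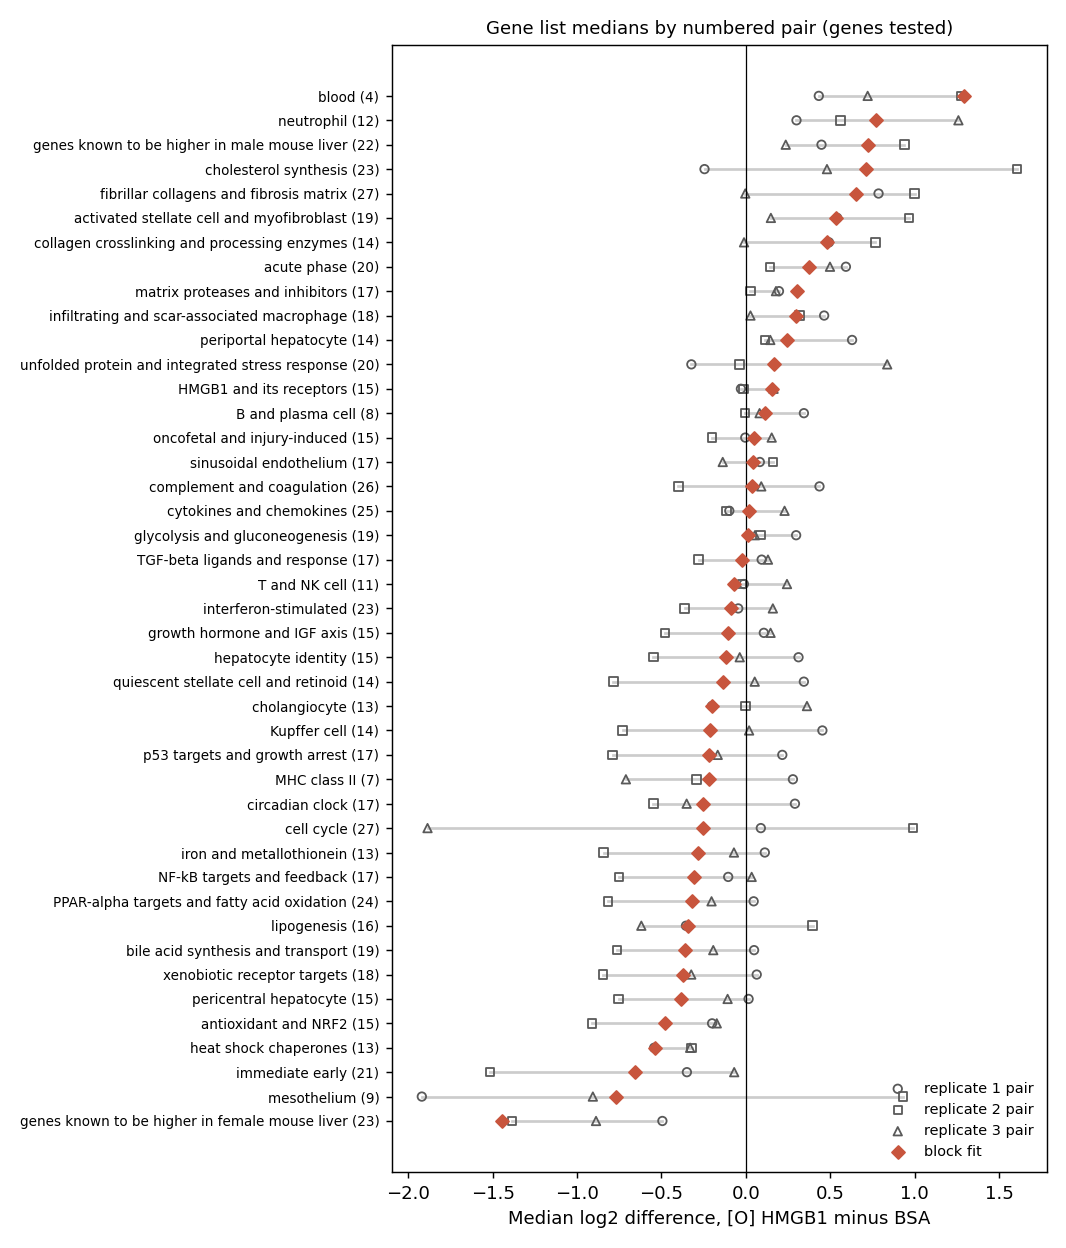
Median log2 difference between [O] HMGB1 and BSA (x axis) of each gene list with at least 4 genes tested (number in brackets), with open symbols for each numbered pair (log2 of CPM + 1) and red diamonds for the edgeR fit with the block. All 3 pair medians lie on 1 side of 0 for lists such as neutrophil, acute phase and heat shock chaperones, and on both sides for cell cycle (0.09, 0.99 and -1.89).

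Markers of other cell types were read for the same libraries. Of 9 blood genes the globin genes Hba-a1, Hba-a2, Hbb-bs and Hbb-bt were listed at 0 in all 6 libraries. The 4 tested ones had a median of 1.29, among them the platelet factor gene Pf4 (2.03, 2.27 and 4.63 CPM against 5.1, 7.51 and 7.44 CPM) and the red cell anion exchanger gene Slc4a1 (1.05, 0.757 and 0.386 CPM against 1.6, 2.96 and 2.09 CPM), both with groups apart. Alas2, the heme synthesis gene of red cells, stood at 96.7, 19.9 and 32.2 CPM against 139, 32.6 and 42.5 CPM (log2 0.54, SE 0.18). Whether blood in the tissue moves with the neutrophil granule genes was not tested. The 17 T and NK cell genes with deposited counts, 11 of them tested, summed to 20.4, 114 and 22.8 CPM with BSA and 15.4, 41.4 and 43.9 CPM with [O]. For 10 B and plasma cell genes, 8 of them tested, the sums were 414, 399.8 and 537 CPM with BSA and 424, 655 and 607 CPM with [O]. The 17 sinusoidal endothelial genes had a median of 0.04 and the 13 cholangiocyte genes of -0.20. Mesothelial genes, from the liver's surface, differed in sign between pairs (-1.92, 0.93 and -0.91). Of 16 genes of pancreas, fat and muscle 1 passed the filter, and Prss1, Cpa1, Amy2a5, Pnlip and Lep were at 0.

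Set against [H] HMGB1, the other form given during injury, edgeR with the block over 9 libraries called 0 of 13429 genes (0%), with 1579 (11.8%) at an unadjusted p under 0.05. DESeq2 with the same design called 548 of 13429 genes, 519 higher and 29 lower with [O]. This comparison shares the [O] libraries with the one above, and its replicate numbers do not match in Xist level. The matrix list had a median of 1.34 and the myofibroblast list of 0.90, [O] minus [H], against -0.03 over all genes. Lists of other cell types were positive too. Infiltrating macrophage genes had 1.01, sinusoidal endothelial genes 0.85 and B and plasma cell genes 0.81. Cholangiocyte genes had 0.06 and hepatocyte identity genes -0.23. Acta2 stood at 41.3, 27.2 and 7.37 CPM in the [H] livers and Col1a1 at 47.5, 63.6 and 30.8 CPM, so that all 3 [O] livers lay above all 3 [H] livers in both genes. The neutrophil list had a median of 2.25, with Mpo at 1.48, 0.906 and 0.398 CPM under [H]. For the acute phase list the median was 0.14. Me1 stood at 110.1, 141 and 201 CPM with [H] HMGB1, above all [O] livers. Itgam (16.8, 36.6 and 11.1 CPM with [H]) and Ngp (3.93, 1.46 and 4.51 CPM with [H]) lay below all [O] livers. Some other leading genes, Fabp2 and Cxcl2 among them, overlapped between the 2 forms. Fabp2 stood at 20.8, 20.6 and 24.2 CPM with [H] (log2 -0.18, [O] minus [H]). Cxcl2 stood at 1.4, 13 and 2.06 CPM with [H] (log2 -0.30).

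The same [O] protein on HSC-T6 cells, with controls of its own, gave calls in both directions (2408 of 10140 genes higher, 23.7%, and 2045 lower, 20.2%). Lcn2 rose in the cells (log2 8.23, SE 0.31, edgeR adjusted p = 3.03e-17) and was higher in the livers, and so was Acta2 (log2 0.82 in the cells, adjusted p = 6.55e-17). Cxcl2, Cxcl1 and Ccl2 rose in the cells (log2 6.46, 6.71 and 4.26), while in the livers their fitted differences were -3.51, -0.57 and -0.26. The cytokine list had a median of 3.28 over 11 genes tested in the cells, 9 of which rose and 1 of which fell, against 0.02 over 25 in the livers. The NF-kB target list had 2.59 in the cells (13 of 14 rose) and -0.30 in the livers. The matrix list had a median of 0.00073 in the cells, where 9 of 22 genes rose and 4 fell. Time of exposure, species and tissue all differ between these experiments, and the difference between them was not tested. The submitters' notes name a mouse genome build for these rat cells as well, and its part in the cell values was not tested.

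CCl4 alone, in wild-type livers that share no library with this comparison, gave 3219 of 14129 genes higher (22.8%) and 3323 lower (23.5%) than MO. There 25 of 27 matrix genes and 17 of 19 myofibroblast genes rose and none fell (medians 2.20 and 1.59), and 18 of 24 PPAR-alpha genes fell (median -1.01). These are the directions of the fitted medians of [O] HMGB1 in these lists. For others the signs differed. The acute phase list had a median of -0.38 under CCl4, with Saa1 at log2 -0.91 (edgeR adjusted p = 0.213). The NRF2 list had a median of 0.97 (9 of 15 rose) and the immediate early list of 1.18 (7 of 21 rose). Selenbp2 fell under CCl4 (log2 -5.05, SE 0.80, edgeR adjusted p = 8.57e-05), and was higher with [O] HMGB1 in each pair.

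**Figure D5:**
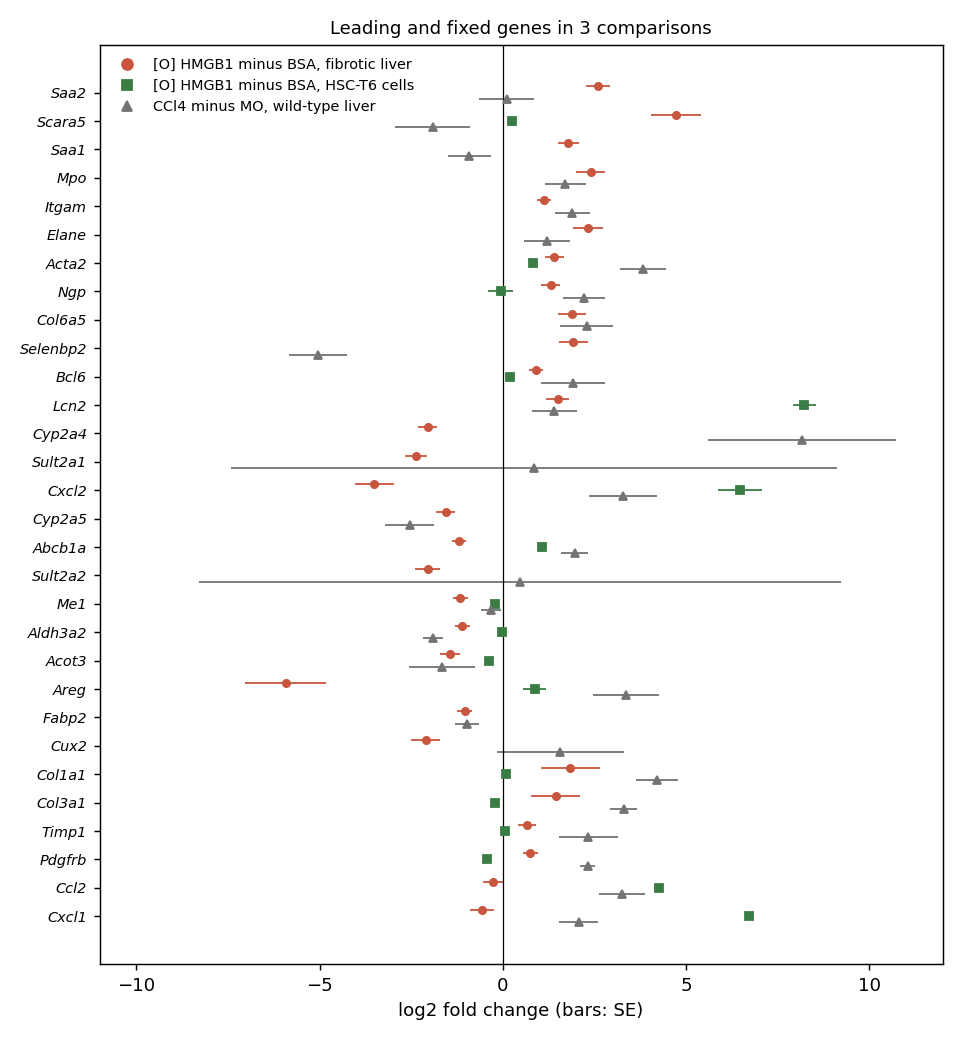
Log2 fold change (x axis, bars are SE) of the 24 leading genes and 6 fixed genes for [O] HMGB1 minus BSA in fibrotic liver (red circles) and in HSC-T6 cells (green squares) and for CCl4 minus MO in wild-type liver (grey triangles); a missing symbol is a gene not tested there. Lcn2 lies right of 0 in all 3, and Cxcl2 lies left of 0 in fibrotic liver only.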

How the data were processed

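RNA of whole liver was sequenced with a TruSeq Stranded mRNA preparation, per the labels' protocols. The deposited values are whole-number counts per gene, made by the authors. The mouse build mm10 is named in the submitters' processing notes for all 51 samples, the rat HSC-T6 cells included. Which aligner, counter, annotation and strand setting were used is not given in the sources used here, so overlapping genes and near copies are uncertain. The columns were matched to samples by their names.

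The members, the 42 gene lists and the tests were chosen with earlier results of these data known. A further 2 lists (genes known to be higher in female or male mouse liver) were drawn up after the values were seen, and 9 genes looked at first were then left out of them. Genes were kept by filterByExpr (minimum count 10, minimum total 15), which left 13255. The main fit was edgeR 4.0.16's robust quasi-likelihood test in R 4.3.3 with TMM factors and the replicate number as a block on the 6 libraries (2 residual degrees of freedom), adjusted by Benjamini-Hochberg over all genes and called under 0.05. The same test was run for [O] against [H] HMGB1 (9 libraries, block), for the HSC-T6 cells (all groups, no block) and for CCl4 against MO (all groups, no block). Pair differences are log2 of CPM + 1.

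The replicate number was used as a block because the rule that defines this comparison asks for it. The labels do not give its meaning. The same-number correlations (0.475, 0.593 and 0.507) are each over 0.1. Since the number coincides with Xist level in these groups, they do not show that the samples are pairs. DESeq2 1.42.0, RLE factors, other filters, fits without the block and without each replicate were run beside the main fit. The fits with the block were also run on simulated counts with known changes. These did not model the Xist differences or the outlying BSA 2 library. That run therefore does not show how the fits perform on these libraries. No pair of libraries within a group was a duplicate (chi-square per degree of freedom 44.8 to 158). Named genes were the 12 of smallest p in each direction with the same sign in all pairs and a mean of at least 1 CPM (predicted genes passed over), 24 fixed genes, and up to 4 members of each list, apart from some that are not reported here. Further members are named where they show how a list divides, chosen after their values were seen. Of the genes tested, 12677 (95.6%) were in the RefSeq table of GRCm38.p6, from which positions and promoter sequences (searched with Python 3.11.15, aligned with Biopython 1.88) were taken.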

Additional observations from a re-analysis of the deposited data

Results flagged for a closer look

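For 7 of the 62 named genes tested in both livers and cells (11.3%) the 3 [O] livers lay all on one side of the 3 BSA livers, and the 3 [O] libraries of the HSC-T6 cells lay all on the other side of their BSA controls. Over all 8888 genes tested in both this held for 163 (1.83%), and the named genes were in part picked for their difference in the livers, so the shares are not alike in kind. The livers and cells differ in species, tissue and time of exposure, and the difference between them was not tested. The growth factor ligand gene Areg had a log2 difference of -5.93 in the livers and 0.87 in the cells. The gelatinase gene Mmp2 had 0.82 and -0.20, and the growth factor gene Tgfb3 had 0.53 and -1.29. The interferon-induced gene Oasl2 had -0.62 and 0.96, and the thioredoxin reductase gene Txnrd1 had -0.55 and 0.59. The kinase gene Plk3 had -1.74 and 0.44, and the clock gene Per1 had -0.96 and 0.10. In the cells Mmp2 and Per1 did not pass the test (edgeR adjusted p = 0.144 and 0.248), and in the livers none of the 7 did. Of all genes, 3.41% had [O] livers above and 2.32% had them below all BSA livers.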

How the results depend on the processing

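The count of 0 genes by edgeR with the replicate block stayed at 0 with no replicate block, with all 6 groups or 9 CCl4 libraries in the fit, with RLE factors, with no filter, with a mean of at least 5 CPM and with Xist level as the block. Leaving out a numbered pair, or without the block a single library, gave 0 to 1 calls (Scara5 without replicate 2). DESeq2 called 37 genes with the replicate block and 1 with no replicate block (Me1), the latter chosen after seeing the data. Against [H] HMGB1 the count of 0 became 548 with DESeq2 and 1 with no filter. The counts of the HSC-T6 cells and of CCl4 against MO stayed within 1.5 times in each setting, the replicate block included (4666 and 6716).

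Of 113 named genes 89 kept the sign of their log2 difference in each setting run, as did 21 of the 24 leading genes, and 15 of 44 list medians did. Of the list medians that turned in at least 1 setting, immediate early ranged from -1.82 to 0.48, NF-kB targets from -0.80 to 0.29, male-biased genes from -0.82 to 2.03, cholesterol synthesis from -0.036 to 1.20, infiltrating macrophages from -0.043 to 0.47, Kupffer cells from -0.44 to 0.11, the growth hormone axis from -0.85 to 0.21 and cytokines from -1.07 to 0.79. Of the other named genes, Tnf, Lrat, Ccl2, Alb, Tgfb1, Il1b and Mki67 reversed when a numbered pair was left out. The rest reversed only in fits without the block and without a single library. The lowest and highest values below are over both kinds of fit. Alb ranged from -0.41 to 0.10, Ccl2 ranged from -1.49 to 0.99, Cd14 ranged from -2.57 to 1.24, Cela1 ranged from -0.072 to 0.46 and Cxcl1 ranged from -1.66 to 0.61. Cyp2a5 ranged from -3.63 to 0.48, Cyp7a1 ranged from -3.18 to 1.83, Fos ranged from -3.76 to 0.47 and Fosb ranged from -4.10 to 0.48. Hsd3b5 ranged from -0.11 to 4.74, Il1b ranged from -1.19 to 1.56, Lrat ranged from -0.62 to 0.27, Mki67 ranged from -2.22 to 1.17 and Npas2 ranged from -1.22 to 3.66. Slco1a1 ranged from -2.54 to 6.49, Sult2a1 ranged from -5.63 to 1.09, Sult2a2 ranged from -3.63 to 0.047, Tbx3 ranged from -0.044 to 2.76 and Tgfb1 ranged from -0.40 to 0.29. Tgfbi ranged from -0.068 to 0.79, Thbd ranged from -1.57 to 0.20, Tlr4 ranged from -0.41 to 0.12, Tnf ranged from -1.54 to 1.46 and Tnfrsf12a ranged from -2.64 to 0.11. Il1b also reversed with Xist level as the block (-0.0074) and in DESeq2 with no replicate block (-0.025). The cause of the reversals was not tested. The fit with the block had 2 residual degrees of freedom.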
